A study of Mus musculus with 12 samples.

Results

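The large subunit of the cytosolic ribosome joins amino acids and passes the growing chain through its exit tunnel. It is built from rRNA and many proteins, nearly all encoded by single genes whose products enter each subunit in equal number, apart from the proteins of the P-stalk. The genes described here are the mouse genes named Rpl followed by a number, with or without an a, together with the P-stalk genes Rplp0, Rplp1 and Rplp2. Of 14042 genes with a kept read, 46 met this rule, and all 46 had reads in each of the 12 libraries. The mRNAs for ribosomal proteins are known as TOP mRNAs, because they begin with a run of pyrimidines that ties their translation to growth signals. The poly(A) tail at the other end of the mRNA is bound by proteins that affect its stability and translation.

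P19 is a mouse embryonal carcinoma line, here wild type, that can be led along a neuronal path with retinoic acid. The groups were cells before induction (D0) and cells kept for 2, 4 or 6 days (D2, D4 and D6) in NDiff 227 medium with 500 nM retinoic acid, with 3 replicates per day. The D0 cells grew in DMEM with serum, so the medium, the agent and the time in culture cannot be told apart. RNA selected on oligo(dT) was sequenced directly on nanopores, so that a read stands for 1 RNA molecule and carries its own tail length. The study calls the replicates biological and pooled the 3 of a day by barcode, and the comparisons of D2, D4 and D6 share the same D0 libraries.

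The 12 libraries held 120326 to 613756 kept reads each, and D2 was the shallowest day. Markers of undifferentiated cells, such as Pou5f1, summed to 1717 to 1987 CPM (kept reads relative to the scaled size of the library) at D0 and to 0 to 2.71 at D6. Of the 6 markers, 2 had no read at D0 and 5 had none at D6. All 8 neuron markers, such as Tubb3 and Map2, rose at D6, and their sum went from 583 to 619 at D0 to 2921 to 3012 at D6. Glia, endoderm and mesoderm markers summed to at most 36.9 CPM in every library, with 4 of 6 glia, 4 of 5 endoderm and 5 of 6 mesoderm markers at 0 at D6. These are sums over the whole culture, in which fewer cells of a type and less RNA per cell cannot be told apart. Each of the 13 sequencing runs held 1 day only. The run names of D0 call the cells undifferentiated but carry the mark D2, 2 of the 4 D6 runs name no day, and the groups follow the sample labels.

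The 46 genes took 673813 kept reads, from 5216 for Rpl22 to 27650 for Rplp1. Of these reads, 97.8% lay on transcripts annotated as protein coding. The transcript with most reads had 3 to 10 exons, and its mm10 coordinates were the same in the reference annotation for all 46 genes. The aligner scores how uniquely a read was placed (mapping quality), and a read can score low where it matches another gene copy or another transcript of the same gene. Which of these applied was not tested. The share of reads with a mapping quality of 10 or more was 99.9% for Rpl4 and Rplp0 but 0.0904% for Rpl17, 0.383% for Rpl22 and 0.617% for Rpl18. For 6 of the 46 genes it was under 10%, so the counts of calls and the departures are also given for reads at or above that limit.

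The windows around the most frequent read start are shown for the 8 members that moved furthest from the group, described further on, and for Rpl4. Each window holds up to 20 bases before and 10 bases from the read start seen most often on the gene's main transcript, taken from the GENCODE transcripts of the mm10 build, 5′ to 3′ on the transcript's strand. Capitals mark the longest run of C and T. The windows of Rplp1, Rpl8 and Rpl4 are shorter because the annotated transcript begins there.
Rpl39: gCCTTTCTCTTCTCCattcctccgccatcg
Rpl31: gcgCCCTTCCTTTCCTacttgggcccggca
Rpl21: CTCCTCCTTTCggccgccgcagccatcttc
Rpl34: TTCCTTTTCCTCTTCCggggacggtgctca
Rpl12: atccgTCTTTTCggctttcggctcggagga
Rplp1: gaTCTTTTCCTCagctgccgccaag
Rpl8: ctaTTTCCTCTTTCggccttgcttgccgg
Rpl3: ctggtcgCTCTCTatctgcggcgtgtggcg
Rpl4: CTTTTCCTgtgggagcagccg
The main transcripts lie at chrX:37082520-37085402 (Rpl39), chr1:39367842-39371911 (Rpl31), chr5:146832890-146837032 (Rpl21), chr3:130726839-130730398 (Rpl34), chr2:32961559-32964496 (Rpl12), chr9:61913284-61914542 (Rplp1), chr15:76904078-76906314 (Rpl8), chr15:80077791-80083406 (Rpl3) and chr9:64173375-64178666 (Rpl4). Rpl39, Rpl34, Rplp1 and Rpl3 are on the minus strand and the others on the plus strand. The most frequent read start lay 169 bases into the annotated transcript for Rpl12, 235 for Rpl39 and 269 for Rpl21, so these windows are exonic but lie inside the annotated transcript.

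A run of at least 8 pyrimidines (C or T in any order, on the transcript's strand) was found in 31 of the 37 full windows of the members, 83.8%. The same run was found in 96.3% of 27 small subunit windows and in 10.5% of 3657 windows of other genes, and in 11.9% of all 3721 windows. The longest run had a median of 12 bases in the members and of 4 in the other genes. These letters describe the windows only, and reads that stop short of the true 5′ end move the window downstream.

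The first comparison asked how the abundance of the 46 mRNAs moved over differentiation. Together they took 16.7%, 17.3% and 17.1% of the kept reads in the 3 D0 libraries. At D6 they took 14.3%, 12.8% and 13.2%. As mean ± SD of 3 libraries, the share was 17.0% ± 0.297 before induction. It was 16.4% ± 0.653 on day 2, 16.1% ± 0.643 on day 4 and 13.4% ± 0.807 on day 6. Every D6 library was below every other library, and the exact two-sided permutation test of D6 against D0 gave p = 0.1, the smallest p that 3 libraries against 3 allow. In reads with a mapping quality of 10 or more the share went from 16.8% ± 0.00986 to 13.2% ± 0.468.

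Gene by gene, 44 of the 46 members were lower at D6 than at D0 and none was higher (limma-voom, adjusted p of at most 0.05). Only Rpl39 had a change above 0, and it had an adjusted p of 0.69 by limma-voom. As background, 18.8% of the 9309 genes tested were lower. The median log2 change of the members was -0.57, beside -4.83e-06 for all genes tested, so a typical member kept 67.3% of its D0 level. Among the members, the D0 and D6 libraries of Rpl9, Rpl10, Rpl24, Rpl31 and Rpl39 overlapped. Overlap was not counted over all genes. On reads with a mapping quality of 10 or more, 42 of 44 members tested were lower, beside 15.5% of all genes. Rpl17 and Rpl22 were not tested there, for want of reads. Scaling to library totals in place of the trimmed mean moved the median of all genes at D6 by 0.26 on the log2 scale. It put the members' median at -0.31, with 37 lower (1162 of 9309 genes) and 1 higher (Rpl39, beside 2588 of 9309 genes). The changes of Rpl31, Rpl21 and Rpl34 turned to above 0 with this scaling. Relative to the median of all genes the members' median was -0.57 with the trimmed mean and -0.58 with totals.

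The decline did not run evenly over the days. At D2, 27 members were lower (6.11% of all genes), with a median log2 change of -0.25, and this count fell to 4 when D2 replicate 2 or D2 replicate 3 was left out and to 5 without D0 replicate 2. Scaled to totals, 6 were lower (373 of 9309 genes) and 1 higher (720 of 9309 genes). At D4, 24 were lower (12.5% of all genes) and Rpl39 was higher (12.9% of all genes), with a median of -0.20. Scaled to totals, 20 were lower (921 of 9309 genes) and 6 higher (1537 of 9309 genes). Between D2 and D4 only Rplp1 fell (1.08% of all genes lower) and only Rpl23a rose (2.03% of all genes higher) past the threshold. Between D4 and D6, 42 members fell and none rose, beside 4.39% of all genes lower, with a median of -0.41. Those that did not pass there were Rpl38, Rpl9, Rpl24 and Rpl34, with log2 changes of -0.20, -0.43, -0.13 and -0.14.

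**Figure D1:**
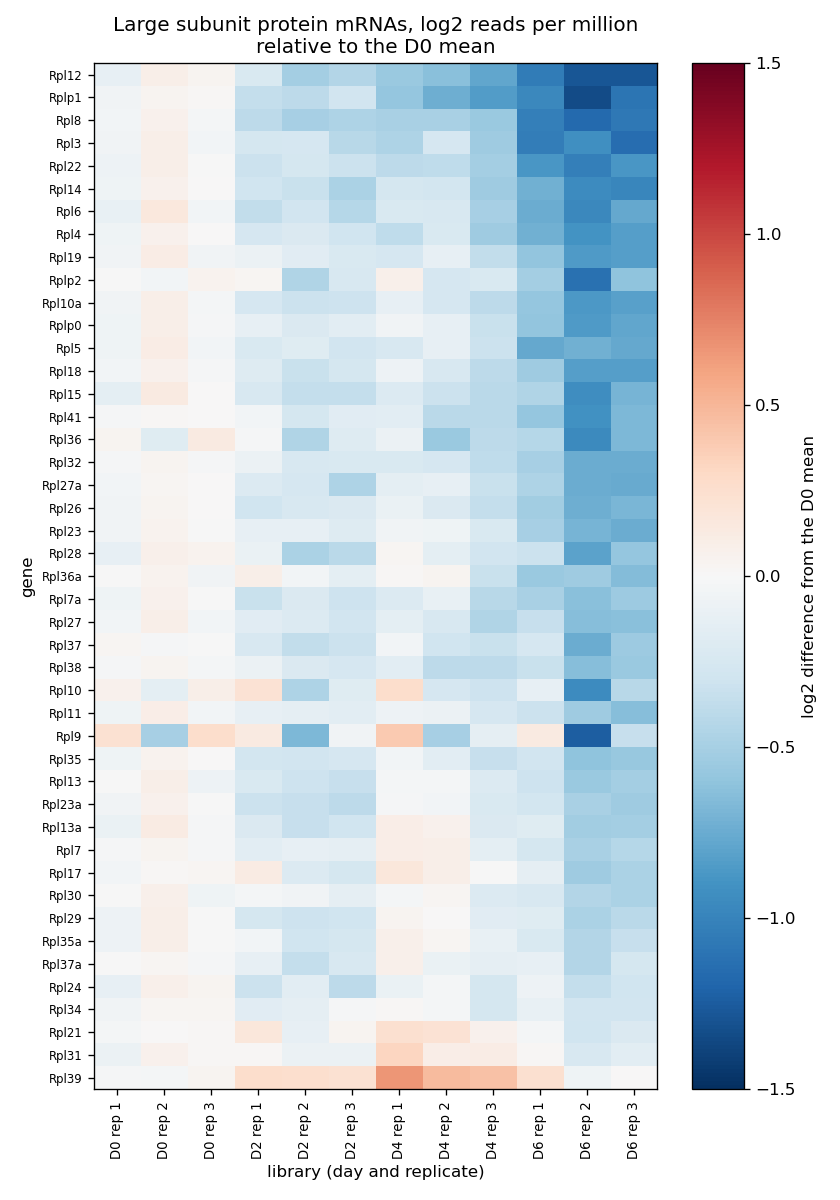
Each of the 45 rows is a gene and each column a library. Colour gives the log2 difference of the scaled read level (CPM) from the gene's D0 mean. Rows are ordered by departure from the group at D6. The D6 columns are blue for nearly all rows, the bottom row (Rpl39) is red at D4, and Rpl9 and Rpl10 differ between replicates of 1 day.

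The second comparison asked which members departed from the group. For this the libraries were scaled to the 46 genes themselves, so that 0 is the group's own change and values above and below it must both occur. At D6, 17 members lay below the group (7.15% of all genes did) and 15 above it (41.7% of all genes did, since most genes did not share the members' fall). The other 14 did not pass. The departures ranged from -0.64 to 0.64 on the log2 scale. From reads with a mapping quality of 10 or more, 40 of the 44 members kept the sign of their departure, and 21 departures passed. The share of all genes that passed in that fit is not given here. Values of genes with few reads above that limit are less certain.

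**Figure D2:**
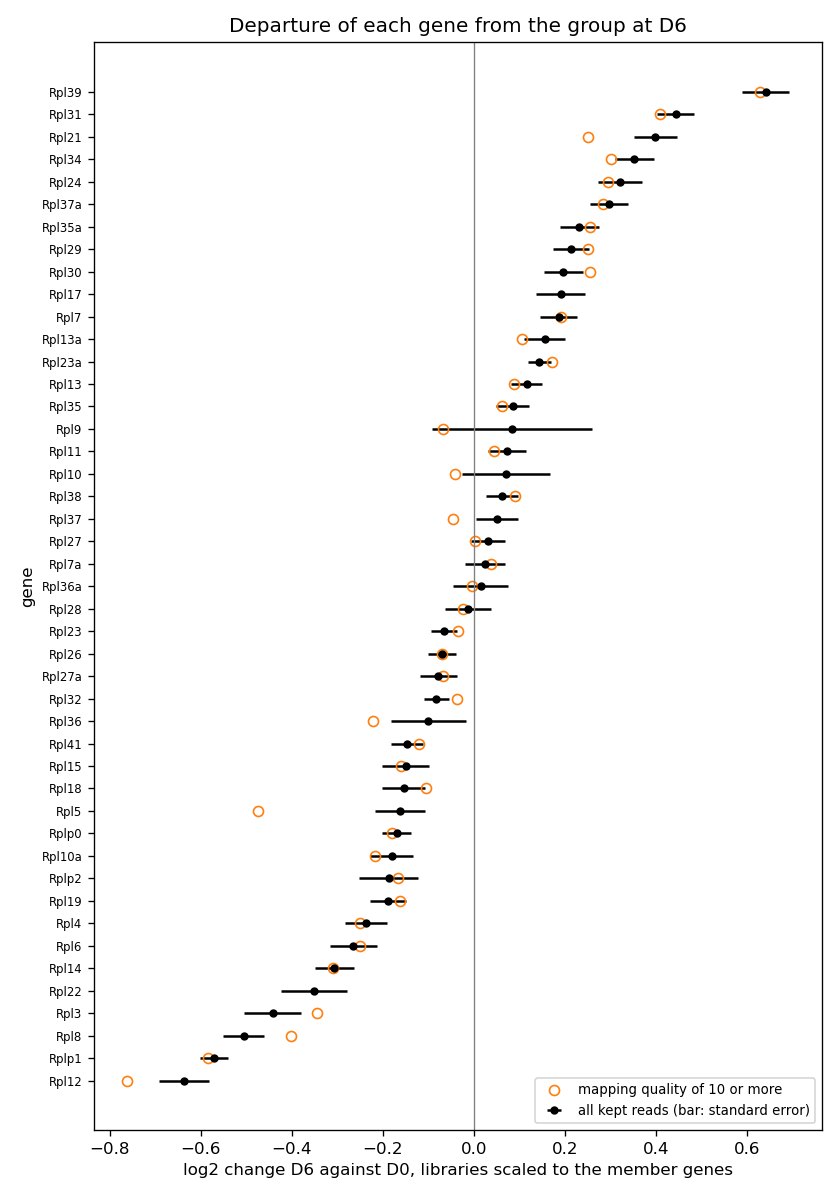
For 45 genes, filled points give the log2 change from D0 to D6 after scaling the libraries to the 46 genes, with the standard error as a bar, and open circles the same from reads with a mapping quality of 10 or more. Rpl39 and Rpl31 lie furthest above the group at 0.64 and 0.44, and Rpl12 and Rplp1 furthest below it at -0.64 and -0.57. Rpl5 moves most between the filled and open points, from -0.16 to -0.47.

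Rpl12 and Rplp1, which belong to the P-stalk, had the lowest departures of the 46. The P-stalk recruits the elongation factors to the ribosome, with Rplp0 as its base, pairs of Rplp1 and Rplp2 as its arms and Rpl12 beside the base. All 4 genes lay below the group at D6 (7.15% of all genes), with a median log2 change of -0.97. Rpl12 had 3092, 3564 and 3454 CPM in the D0 libraries and 1623, 1386 and 1379 at D6. The D6 libraries were all far under the D0 ones, at 42.8% of the D0 level by the fit. Its log2 change was -1.22 (SE 0.0801, limma-voom adjusted p = 2.46e-20) and its departure -0.64 (SE 0.0545). Only 5.46% of its reads had a mapping quality of 10 or more, and the departure from those reads was -0.76. Among those reads, transcripts not annotated as protein coding took 46.8% at D0 and 59.2% at D6. Among all Rpl12 reads they took 7.47% and 6.19%.

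Rplp1 had 8749, 9299 and 9158 CPM at D0 and 4628, 3586 and 4236 at D6. Of its reads, 99.8% had a mapping quality of 10 or more, and it fell to 44.7% of its D0 level (log2 change -1.16, SE 0.0594, limma-voom adjusted p = 1.18e-25). Rplp1 was already at 6043, 5452 and 5077 CPM at D4, and its departure went from -0.12 on day 2 to -0.55 on day 4 and -0.57 on day 6, so most of it arose between D2 and D4 (-0.43, limma adjusted p = 1.37e-10). Its partner Rplp2 had 3988, 3905 and 4144 at D0 and 2812, 1846 and 2640 at D6. The departure of Rplp2 was -0.19 at D6 (limma adjusted p = 0.0164) and 0.03 at D4. It did not pass at D6 with a mapping quality of 10 or more (-0.17, limma adjusted p = 0.243). Rplp0 had 5373, 5939 and 5528 at D0 and 3727, 3113 and 3271 at D6, a departure of -0.17 (SE 0.0325). The partner genes Rplp1 and Rplp2, which act as a dimer, stood at 44.7% and 58.2% of their D0 levels. The difference between them was not tested.

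Around the peptidyl transferase centre, where peptide bonds are made, 3 of 5 genes lay below the group (7.15% of all genes), and the median log2 change was -0.83. Rpl8, at the centre's rim, had 4695, 5053 and 4747 CPM at D0 and 2374, 2159 and 2304 at D6. These groups were well apart, with a log2 change of -1.10 and a departure of -0.51 (SE 0.0445). Rpl3, which reaches towards the centre from the solvent side, had 3671, 4049 and 3689 at D0 and 1848, 2004 and 1718 at D6. Its departure was -0.44 (SE 0.0627). Rpl4, which lines the upper exit tunnel, had 3734, 4065 and 3907 at D0 and 2371, 2099 and 2193 at D6, a departure of -0.24 (SE 0.0458) and -0.25 with a mapping quality of 10 or more. Rpl36a and the late-joining Rpl10 had departures of 0.02 and 0.07 that did not pass.

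Of the 8 members around the tunnel exit, 4 lay above the group (Rpl39, Rpl31, Rpl23a and Rpl17), beside 41.7% of all genes. Below it lay 2 (Rpl22 and Rpl19), beside 7.15%. Only 0.0904% of the reads of Rpl17 had a mapping quality of 10 or more, too few to test. The departure of Rpl23a was 0.14, or 0.09 without D6 replicate 2, and did not pass after thinning to the smallest library (0.08, limma adjusted p = 0.162). Rpl26 and Rpl35 did not pass, at -0.07 and 0.09, and the median log2 change of the 8 was -0.48. Rpl39 is a very short protein in the wall of the lower tunnel. It had 2041, 2031 and 2133 CPM at D0, 2491, 2454 and 2421 at D2, 3263, 2869 and 2803 at D4 and 2442, 1979 and 2081 at D6. Every D4 library was above every D0 library, and D6 overlapped D0. The log2 change of Rpl39 was 0.25 at D2 (limma-voom adjusted p = 0.0504), 0.51 at D4 (SE 0.0733) and 0.04 at D6 (limma-voom adjusted p = 0.69). With libraries scaled to their totals the change at D6 was 0.30 and passed (limma-voom adjusted p = 2.08e-05), so the size and the call of Rpl39 at D6 depend on the scaling. Its departure from the group does not rest on that choice. It stood at 0.48 on day 2, 0.70 on day 4 and 0.64 (SE 0.0512) on day 6. From D4 to D6 it fell by 0.46 on the log2 scale with the rest of the group.

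Rpl31, another exit protein, had 3426, 3794 and 3672 CPM at D0 and 3659, 3082 and 3244 at D6. The days overlapped and the log2 change of -0.15 did not pass (limma-voom adjusted p = 0.0719). The departure of Rpl31 was 0.44 (SE 0.0412). Rpl22, which sits near the exit and is not needed for viability in mice, had 1493, 1674 and 1562 at D0 and 858, 774 and 859 at D6, with a departure of -0.35 (SE 0.0721). Nearly all its reads had a low mapping quality. Its paralog Rpl22l1 changed by -0.97 (SE 0.0924, limma-voom adjusted p = 1.42e-13), close to the -0.94 of Rpl22.

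Outside these regions, Rpl21 and Rpl34 lay furthest above the group. Rpl21 had 2498, 2539 and 2580 CPM at D0 and 2488, 2064 and 2193 at D6. All D6 libraries were below the D0 ones by a small margin, and the departure was 0.40 (SE 0.0465). It was 0.25 with a mapping quality of 10 or more and did not pass (limma adjusted p = 0.0581), on 22.1% of its reads. Rpl34 had 3063, 3249 and 3254 at D0 and 2962, 2611 and 2604 at D6, with a departure of 0.35 (SE 0.0422). The departures of Rpl34 and Rpl24 arose late, at 0.09 and 0.05 at D4 and 0.35 and 0.32 at D6.

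The 5S particle gave a mixed picture, with a median log2 change of -0.63. Rpl5 and Rpl11 bind 5S rRNA in a particle that also restrains the p53 regulator Mdm2. Rpl5 had 3455, 3903 and 3529 CPM at D0 and 2136, 2207 and 2136 at D6, a departure of -0.16 (SE 0.0551, limma adjusted p = 0.0142). Only 2.39% of its reads had a mapping quality of 10 or more, and from those the departure was -0.47 and did not pass (limma adjusted p = 0.116). Rpl11 had 3837, 4293 and 3907 at D0 and 3197, 2765 and 2567 at D6, a departure of 0.07 that did not pass. It was 0.01 without D6 replicate 2 and passed without D6 replicate 3 (0.12, limma adjusted p = 0.0274) and with the December runs of D6 alone (0.14, limma adjusted p = 0.0323). The difference between the 2 genes was not tested. Rpl10a of the mobile L1 stalk lay below the group at -0.18. At the face turned to the small subunit (median log2 change of its 4 genes -0.70, with Rpl19 counted here too), Rpl24 lay above the group (0.32), Rpl41 and Rpl19 below it (-0.15 and -0.19), and Rpl23 was at the edge of the threshold (-0.07, limma adjusted p = 0.053). Rpl23 passed in 8 of 24 alternatives, with adjusted p from 0.00179 to 0.437 by limma over all of them, and with a replicate block it was -0.06 (limma adjusted p = 0.0307). Rpl41 did not pass on reads with a mapping quality of 10 or more (-0.12, limma adjusted p = 0.129). Rpl41, the smallest ribosomal protein, had 7167, 7321 and 7270 CPM at D0 and 4841, 3877 and 4545 at D6. Rpl7a, with 3731, 4098 and 3905 at D0 and 2798, 2524 and 2680 at D6, changed as the group did, with a departure of 0.02.

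Over the 46 members, the departure at D6 went with the median aligned length of the gene's reads at a Pearson r of -0.40 and a Spearman rho of -0.38, and with the D0 level at -0.31 and -0.32. These are descriptions across genes of the same libraries, and genes are not replicates. The members with the longest reads, Rpl4, Rpl3, Rplp0 and Rpl5, with median aligned lengths of 1371, 1272, 1077 and 1006 nt, were all below the group. Reads that began within 25 nt of a transcript's most frequent start made up 82.6%, 88.5% and 87.6% of the members' reads in the D0 libraries and 93.4%, 89.5% and 91.2% in the D6 libraries. These days did not overlap, and the part of read completeness in the departures was not tested.

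The third comparison concerned the poly(A) tails. The median over the 46 genes of their median tails was 94.2, 101 and 100 nt in the D0 libraries, 86.8, 86.4 and 87.3 nt at D2, 80.1, 83.1 and 81.8 nt at D4 and 80.4, 80.7 and 80.0 nt at D6. D0 replicate 1 was the shortest of its day, and still longer than all libraries of the later days. The other genes measured, with neither Rpl nor Rps members, had a median of 105 ± 2.95 nt before induction and 107 ± 0.33 nt on day 6 (SD of 3 libraries). Each member was tested in the same fit as 1747 genes with at least 10 reads in every library. The median tail was shorter in 39 of 46 members at D2 (5.84% of all genes), in 45 at D4 (6.7% of all genes) and in 44 at D6 (6.35% of all genes), and longer in none, all 46 changes being below 0 on each day. The members' median change was -10.6, -15.8 and -16.8 nt on these days, beside -3.68, -2.19 and 1.62 nt for all genes. In reads with a mapping quality of 10 or more, 38 of 41 members were shorter at D6, beside 7.02% of all genes.

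The steps between later days were compared in the same fits. Between D2 and D4, 10 members had shorter tails past the threshold (1.09% of all genes). Between D4 and D6 none did (limma, 0% of all genes, and no member at an unadjusted p under 0.05), with a median change of -0.96 nt, while over the same step 42 members fell in abundance. Whether the 2 time courses differ was not tested.

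**Figure D3:**
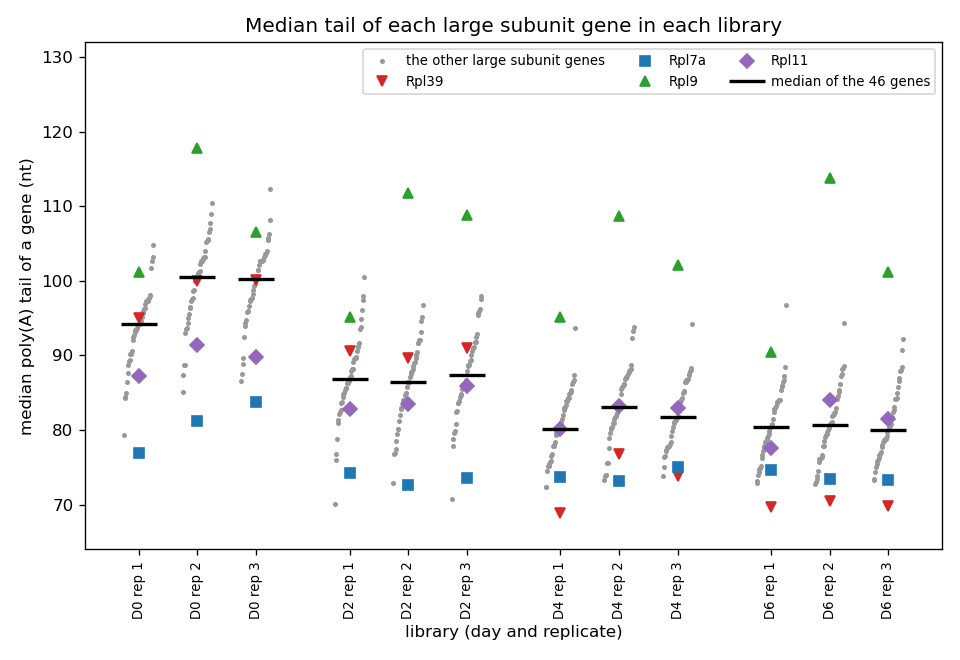
Each point is the median poly(A) tail in nt of 1 of the 46 genes in 1 library, and the bar is the median over the genes. The bars step down from 94.2 to 101 nt at D0 to 80.0 to 80.7 nt at D6. Rpl39 starts near the middle and ends lowest, Rpl7a starts low and moves little, and Rpl9 is highest in most libraries.

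The share of tails from 30 to 90 nt rose in 37 members at D2 (6.01% of all genes), 40 at D4 (5.78% of all genes) and 41 at D6 (5.72% of all genes). Over the members its median went from 41.9% at D0 to 53.9% at D6. The 5 members that did not pass at D6 were Rpl24, Rpl10, Rpl11, Rpl7a and Rpl9. The share of tails under 30 nt stayed small, with a median of 1.62% at D0 and 3.54% at D6. It was larger in 8 members at D4 (1.26% of all genes) and in 19 at D6 (2.75% of all genes), and the D6 count ran from 8 to 21 with 1 library left out. In Rpl39 this share was 2.37% ± 0.274 before induction and 6.40% ± 1.15 on day 6 (SD of 3 libraries). In Rplp2 it was 1.02% ± 0.23 and 4.94% ± 0.94.

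Sequencing dates gave a partial check. The D0 runs are dated December, and 2 of the 4 D6 runs are too. Over single runs and libraries, the members' median tail was 92.1 to 102 nt in the December runs of D0 and 77.7 to 81.3 nt in the December runs of D6. In the January runs of D6 it was 79.7 to 81.4 nt. Their share of kept reads was 16.6% to 17.5% in the December runs of D0, 11.7% to 14.0% in those of D6 and 13.1% to 14.7% in the January runs of D6. D2 and D4 were run in January only.

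Some members departed from the group in tail length. Relative to the group's median in each library, 5 members were shorter at D6 (0.744% of all genes) and 11 longer (49.1% of all genes, since most genes did not share the shortening). Rpl39 shortened most. Its median tail was 95, 100 and 100 nt at D0, 90.6, 89.6 and 91.0 nt at D2, 68.9, 76.7 and 73.8 nt at D4 and 69.6, 70.4 and 69.7 nt at D6. It was close to the group's median at D0 and was the shortest of the 46 at D6, with a change of -28.4 nt (SE 2.48) and a departure of -10.5 nt (SE 1.90, limma adjusted p = 0.000161). At D2 the tail departure of Rpl39 was 3.49 nt and did not pass (limma adjusted p = 0.277). Its share of tails from 30 to 90 nt went from 41.7% ± 0.824 to 57.8% ± 1.49. Rpl23, at the subunit interface, had tails of 96.3, 103 and 104 nt at D0 and 78.6, 76.7 and 78.8 nt at D6, a departure of -5.17 nt (SE 1.16). Rpl23a, where the signal recognition particle docks, had 93.4, 96.4 and 98.3 nt at D0 and 74.0, 73.1 and 73.5 nt at D6, a departure of -4.55 nt (SE 1.36) that did not pass with the December runs of D6 alone (-3.28 nt, limma adjusted p = 0.09). Rplp2 was below the group at -4.24 nt. This value did not pass on reads with a mapping quality of 10 or more (-4.22 nt, limma adjusted p = 0.136).

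The members that shortened least were Rpl9, Rpl7a and Rpl11. Rpl7a, which hosts small nucleolar RNAs in its introns, had the shortest D0 tails of the group, 76.9, 81.2 and 83.8 nt, and 74.6, 73.5 and 73.3 nt at D6. The D6 libraries were all below the D0 ones by a few nt, with a change of -6.84 nt (SE 2.12, limma adjusted p = 0.038) and a departure of 11.1 nt. Rpl11 had 87.2, 91.4 and 89.8 nt at D0 and 77.6, 84.0 and 81.5 nt at D6, a departure of 9.53 nt (SE 1.69). The other members above the group were Rpl10, Rpl19, Rpl41, Rpl24, Rplp0, Rpl27, Rpl18 and Rpl32, with departures of 4.55 to 9.06 nt. Across the 46 genes the change at D6 went with the D0 tail at a Pearson r of -0.45, as a description only, since the D0 values enter both. Rpl4 shortened as the group did, from 97.4, 101 and 104 nt to 82.8, 80.2 and 86.6 nt. So did Rpl5, Rpl3 and Rpl22, whose departures of -0.31, -1.20 and 0.50 nt did not pass. Rplp1 had a departure of 2.65 nt at D6 that did not pass. At D4 its departure of 3.69 nt passed (limma adjusted p = 0.0449).

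Abundance and tail departures did not line up. Their Pearson r over the 46 genes was -0.18. The 4 members that fell most in abundance had tail departures of -3.05 nt (Rpl12), 2.65 nt (Rplp1), 3.73 nt (Rpl8) and -1.20 nt (Rpl3), and none of these passed. Rpl8 passed without D6 replicate 1 (5.80 nt, limma adjusted p = 0.0261) and with tails weighted by reads, and Rplp1 without D0 replicate 1 (4.07 nt, limma adjusted p = 0.0236). From its few reads with a mapping quality of 10 or more the value for Rpl12 was 19.7 nt and did not pass either (limma adjusted p = 0.273).

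**Figure D4:**
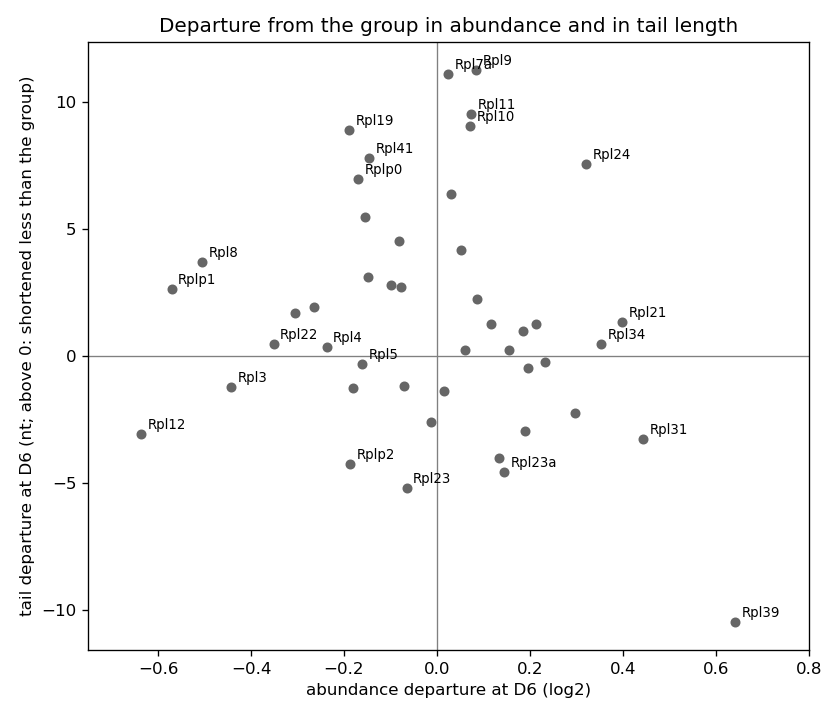
Each point is 1 of the 46 genes, with its departure from the group at D6 in log2 abundance on the x axis and in median tail (nt) on the y axis. Rpl39 stands alone at the lower right (0.64 and -10.5 nt), and Rpl7a, Rpl9, Rpl11 and Rpl10 are at the top, with abundance departures of 0.02 to 0.08 that did not pass.

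Rpl9 differed between replicates more than any other member. In replicates 1, 2 and 3 it had 2301, 1395 and 2356 CPM at D0, 2149, 1235 and 1898 at D2, 2580, 1389 and 1792 at D4 and 2150, 836 and 1539 at D6. Replicate 2 was lowest on all 4 days. Its median tails were 101, 118 and 107 nt at D0, 95.2, 112 and 109 nt at D2, 95.2, 109 and 102 nt at D4 and 90.5, 114 and 101 nt at D6, with replicate 2 longest on all 4 days. Which barcode each replicate number had is not given in the sources used here. The share of Rpl9 reads that passed the tail caller was 79.4% to 86.8% in replicate 2 and 78.4% to 89.8% in the other libraries, and the part of the barcodes in this difference was not tested. The log2 change of Rpl9 at D6 was -0.54 (SE 0.162, limma-voom adjusted p = 0.00601), and -0.28 with libraries scaled to totals, where it did not pass (limma-voom adjusted p = 0.19). Its departure in abundance was 0.08. Leaving out D0 replicate 2 turned it to -0.25, and leaving out D6 replicate 2 raised it to 0.45, which passed (limma adjusted p = 0.03). Its tail departure was 11.3 nt (limma adjusted p = 0.031). It did not pass without D6 replicate 2 (5.44 nt, limma adjusted p = 0.276) or without D0 replicate 1 or 3 or D6 replicate 3. Nor did it pass with a mapping quality of 10 or more (15.1 nt, limma adjusted p = 0.0604). Over the 21 alternatives run, this tail departure ranged from 5.44 to 16.9 nt, with limma adjusted p from 0.00138 to 0.276. Rpl10, Rpl36, Rplp2, Rpl37 and Rpl39 were also lower in replicate 2 than the mean of their day on all 4 days, by a mean log2 difference of -0.27, -0.22, -0.19, -0.10 and -0.05. Other members, such as Rpl36a and Rpl27, were below the mean of their day in replicate 3 on all 4 days. Rpl10 had 1995, 1728 and 2026 CPM at D0 and 1762, 998 and 1434 at D6, and its tail change of -8.89 nt did not pass (limma adjusted p = 0.0606).

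**Figure D5:**
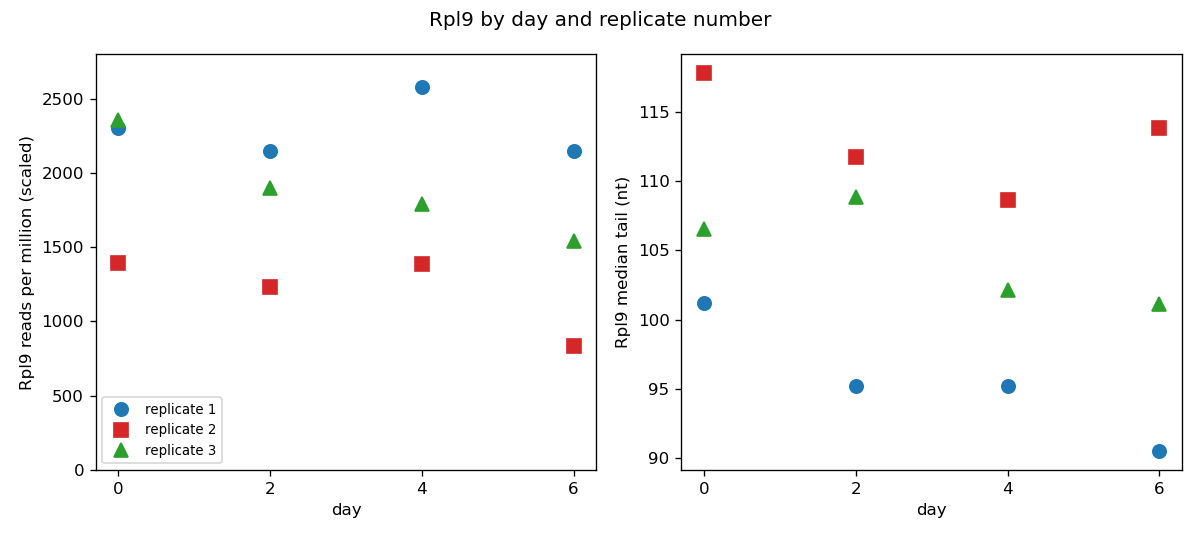
The left panel gives the scaled read level (CPM) of Rpl9 and the right panel its median tail in nt, by day on the x axis, 1 point per library. Replicate 2 has the fewest reads (836 to 1395) and the longest tails (109 to 118 nt) on each day.

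Transcripts annotated as other than protein coding took the largest share of reads in Rpl36a (43.9%), Rpl3 (14.7%) and Rpl14 (13.5%). In Rpl36a they took 40.4% ± 0.635 at D0 and 45.8% ± 2.71 at D6, and the libraries of these days did not overlap (exact two-sided permutation p = 0.1, the smallest possible). Among reads with a mapping quality of 10 or more the shares of Rpl36a were 24.6% and 31.0%. In Rpl3 the share was 17.8% ± 5.47 at D0 and 13.3% ± 2.42 at D6, but 0.979% and 1.35% with a mapping quality of 10 or more. A low mapping quality here can include reads that could not be told apart between transcripts of 1 gene.

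The small subunit served as the nearest comparison. It has 30 genes here. At D6, 27 of these fell, beside 18.8% of all genes, with a median log2 change of -0.57. Tails were shorter in 28, beside 6.35% of all genes, with a median change of -17.7 nt. The log2 ratio of summed large to small subunit reads was 0.66 ± 0.00984 before induction and 0.61 ± 0.00446 on day 6 (SD of 3 libraries), a difference of -0.0468 (exact two-sided permutation p = 0.1, the smallest possible). Counting only reads with a mapping quality of 10 or more, this difference was -0.00318. The median tail of the members minus that of the small subunit genes changed by -0.593 nt from D0 to D6 (exact two-sided permutation p = 0.5).

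Of the related genes fixed as a list, 4 of 7 were tested, and 3 of the 4 were lower at D6 (18.8% of all genes). These were Rpl22l1, Rpl36al and Rpl7l1, a paralog that acts in subunit assembly, with log2 changes of -0.97, -0.82 and -0.79. Of 22 assembly factors of the large subunit, 19 were lower at D6 (18.8% of all genes) and all 22 changes were below 0, with a median of -0.92, among them Gnl3 (-1.56), Pes1 (-1.40) and Nop56 (-1.05). Of the 12 with enough reads for tails, 1 had a shorter tail, beside 6.35% of all genes. Of 49 mitochondrial large subunit genes, 20 were lower (18.8% of all genes) and 1 higher (1765 of 9309 genes) at D6, with a median of -0.38, and the median tail change of the 31 measured was 0.61 nt.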

How the data were processed

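Direct RNA reads of 12 libraries (4 days, 3 replicates) were analysed. Base calls came from Guppy, and the authors placed the reads on mm10 transcripts with minimap2 (version 2.20 in the submitters' processing notes). Nanopolish gave the tails, and Deeplexicon the barcode of each read. The deposited table has 1 line per alignment. Its mapping quality is a score given by the authors' aligner, its barcode confidence is a fraction per read, and its tail length is in nt. A second deposited table, of the authors' own fold changes and p-values, was not used.

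Reads with the quality tag PASS, an assigned barcode, class mRNA and neither a pseudogene biotype nor a mitochondrial contig were kept (4274320 reads) and tallied per gene and library. Because these tallies were made here from reads, limma-voom (limma 3.58.1, R 4.3.3) was used, on genes with at least 30 reads in all, with trimmed-mean scaling (trimming 30% of ratios and 5% of levels) and 0.5 reads added. Median tails and tail-class shares per gene and library were fitted with limma with a trend on reads. All 12 libraries entered each fit, and p-values were adjusted by Benjamini-Hochberg over all genes tested and called at 0.05. CPM values are scaled and not divided by length, since a read is 1 molecule. Departures came from the same fits after scaling libraries to the members (median of ratios) or subtracting the members' median tail. Steps were tested on simulated data. Python 3.11.15, pandas 2.3.3 and matplotlib 3.10.9 made tables and figures.

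Members and lists were chosen with earlier results of these data known. Named genes were Rpl4, the P-stalk, Rpl5, Rpl11, Rpl3, Rpl10, Rpl39, Rpl41, Rpl22 and Rpl7a, the 4 members furthest above and below the group, and the 3 with most and least tail shortening. The steps D4 against D2 and D6 against D4, the values per run date and the relations among members were chosen after seeing the data. Values of 1 member and of 1 related gene are not reported here by name, and the figures with a row per gene leave that member out. Counting error is part of each library's spread.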

Additional observations from a re-analysis of the deposited data

Results flagged for a closer look

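Reads on Rpl pseudogenes were outside the comparisons and came to 2376 over 68 pseudogenes. Of these, 2091 lay on Rpl36-ps12. They were 0.203 to 0.566 per 100 member reads in each library. On every day replicate 2 had most of the reads on Rpl36-ps12, with 826, 697, 680 and 669 CPM of all kept reads at D0, D2, D4 and D6, beside 262 to 366 in the other libraries. Rpl36 itself was lowest in replicate 2 on all 4 days. Of the 507 such reads of D0 replicate 2, 99 had a mapping quality of 10 or more.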

How the results depend on the processing

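Over the alternatives run, including D6 reads of the December or of the January runs alone (chosen after seeing the data), the count of lower members at D6 (37 to 45), of shorter tails (at least 38) and of larger shares of 30 to 90 nt (at least 34) stayed within 1.5 times the main value. Scaling to library totals gave a median log2 change at D6 of -0.31 and 6 lower members at D2, beside 373 of 9309 genes. The D2 count of 27 was 16 with scaling without Rpl and Rps genes, 15 with a mean of at least 20 reads, 14 with limma trend or a barcode confidence of 0.75, and 5 after thinning. Leaving out 1 library gave 4 to 26 (4 without D2 replicate 2 or 3, 5 without D0 replicate 2, 9 without D0 replicate 3, 17 without D0 replicate 1, 12 without D4 replicate 1 or 2, 15 without D6 replicate 2 and 11 without D6 replicate 3). The D4 count of 24 was 13 with limma trend, 15 with a pseudocount of 2, 13 after thinning, and 14 to 27 with 1 library left out (14 without D4 replicate 3). With a mapping quality of 10 or more, 21 members in place of 32 were apart in abundance and 12 in place of 19 had a larger share under 30 nt. That last count was 31 with at least 30 reads per library, 3 with limits of 25 and 95 nt, 32 with 35 and 85 nt, and 8 to 21 with 1 library left out (12, 8 and 9 without D0 replicates 1, 2 and 3, and 8 without D6 replicate 1). The causes were not tested, and for most of these alternatives the share of all genes called is not given here.

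The samples were not treated as paired, since not every same-number pair correlated above 0.1. Deviations from the day mean correlated at -0.134 to 0.172 in abundance (4 of 18 pairs over 0.1) and -0.0258 to 0.182 in tails (6 of 18, median 0.0809) for the same number. For different numbers, 2 of 36 pairs in abundance and 0 of 36 in tails (median -0.0254) were over 0.1. Not every sample correlated best with its own number. With a replicate block, 44 members were lower at D6 (35 at D2 and 25 at D4) and 45 had shorter tails. In the same fits 36 were apart in abundance and 16 in tails, and 23 had a larger share under 30 nt. The shares of all genes called with a replicate block are not given here, so these counts describe the members only.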
